A study of Homo sapiens with 39 samples.

Results

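The departure from additivity of abiraterone and olaparib was measured for every gene as the log2 effect of olaparib on top of abiraterone minus its log2 effect on its own. A value above 0 means that the combination lay above the level the sum of both log2 effects gives, and a value below 0 that it lay under it. The members were all genes with enough reads, 18625 of the 63187 in the table, and 12 of the series' 39 libraries made the contrast, 3 in each of 4 groups. All were C4-2B, a castration-resistant line of the LNCaP lineage of prostate cancer, plated in serum-supplemented medium and treated for 5 days with DMSO vehicle, abiraterone acetate at 5 µM, olaparib at 1 µM, or both drugs together at those doses. Values from elsewhere in the series stand beside these where named. They come from enzalutamide at 20 µM plus talazoparib at 10 nM with its own single agents in the same panel, and from a separate time course with olaparib at 1 µM and DMSO after 5 days. C4-2B is 1 cell line, and the labels do not say whether the 3 libraries of a group came from separate cultures, so the p-values measure the spread between these libraries, which may be technical.

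Abiraterone blocks CYP17A1, the enzyme that makes androgen precursors, and so belongs to the androgen pathway inhibitors. Olaparib is a PARP inhibitor (PARPi), which traps PARP enzymes on DNA breaks and is known to induce p53 targets and to slow cycling cells. Adding log2 effects corresponds to multiplying fold changes, so a gene that rises with either drug can rise further with both and still lie below the sum. In bulk RNA, fewer cells of a kind and less RNA per cell cannot be told apart.

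Library totals lay between 26932205 and 39905703 estimated counts, with a median of 34008484.5, and the 10 most counted genes took 9.76% to 13.52% of a library. The 12 markers of luminal prostate epithelium were all present, with a summed level of 5383 to 5565 CPM, the counts scaled by library size, in DMSO, 4493 to 4596 with abiraterone, 5693 to 5831 with olaparib and 4652 to 4691 with both. Summed markers of other cell types were low beside these. The summed CPM was at most 2.857 for 7 basal markers, 24.88 for 10 fibroblast markers, 23.46 for 7 endothelial markers and 16.12 for 12 leukocyte markers, and 3, 6, 4 and 8 of these, in that order, had at most 3 counts in all 12 libraries. The leukocyte sum was highest with olaparib, at 14.85 to 16.12. In it CD68, a lysosomal protein gene also expressed outside leukocytes, reached 15.08 CPM on the same scale. Most of the fibroblast sum was COL1A1 (10.38 to 22.59 CPM) and most of the endothelial sum VWF (12.74 to 22.64). The fibroblast sum was 11.9 to 15.96 in DMSO and 20.87 to 22.79 with abiraterone. The endothelial sum was 14.08 to 16.53 and 22.28 to 22.68, in that order.

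Of the 18625 genes tested, 2386 departed from the sum (12.8%, adjusted p under 0.05, edgeR's quasi-likelihood test). Below the sum were 1504 genes (8.08%) and above it 882 (4.74%). This split moved with scaling and with the filter on low counts: genes above the sum were 37% of the called genes with TMM scaling, 45% with total-count scaling, 48.1% with upper-quartile scaling and 52.1% where only genes with 100 counts in their highest group were tested. Most departures were small, with a median absolute size of 0.27 log2 units among called genes and a median standard error of 0.062. Protein-coding genes made up most of them, with 806 above and 1464 below of 13995 tested, against 60 and 38 of 3565 long noncoding RNA genes. The size reached 0.5 for 200 genes above and 217 below the sum, 1 for 64 and 72, and 2 for 13 and 16. At an unadjusted p under 0.05, 4743 genes departed. Where the sum was taken on the linear CPM scale in place of log2, 2325 of the 2386 genes kept their sign.

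For scale, olaparib changed 6638 genes by itself (35.6%) and 5436 on top of abiraterone (29.2%), while abiraterone changed 9853 by itself (52.9%) and 10535 on top of olaparib (56.6%). Read from the olaparib side, the called genes fell mainly into an attenuated class, where olaparib's own effect was smaller on top of abiraterone or no longer past the threshold. It held 1419 genes, of which 943 were rises with olaparib and 476 were falls. This split also moved, to 699 and 632 with total-count scaling, 796 and 602 with upper-quartile scaling and 808 and 733 with the filter of 100 counts. A further 202 genes turned, with opposite called effects in the presence and absence of abiraterone. In 109 genes the effect of olaparib was strengthened, in 592 the olaparib effect passed the threshold on top of abiraterone and not in its absence (gained), and 64 passed it in neither arm. Read from the abiraterone side, 768 genes were attenuated, 114 turned, 933 were strengthened, 559 gained a response and 12 had none in either arm. The most common single pattern was a rise with each drug and a combination below the sum, with 478 genes, followed by a rise with olaparib and a fall with abiraterone, below the sum, with 355. Falls with each drug and a combination above the sum made up 247. These classes use the libraries that define the departure and are descriptions.

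**Figure D1:**
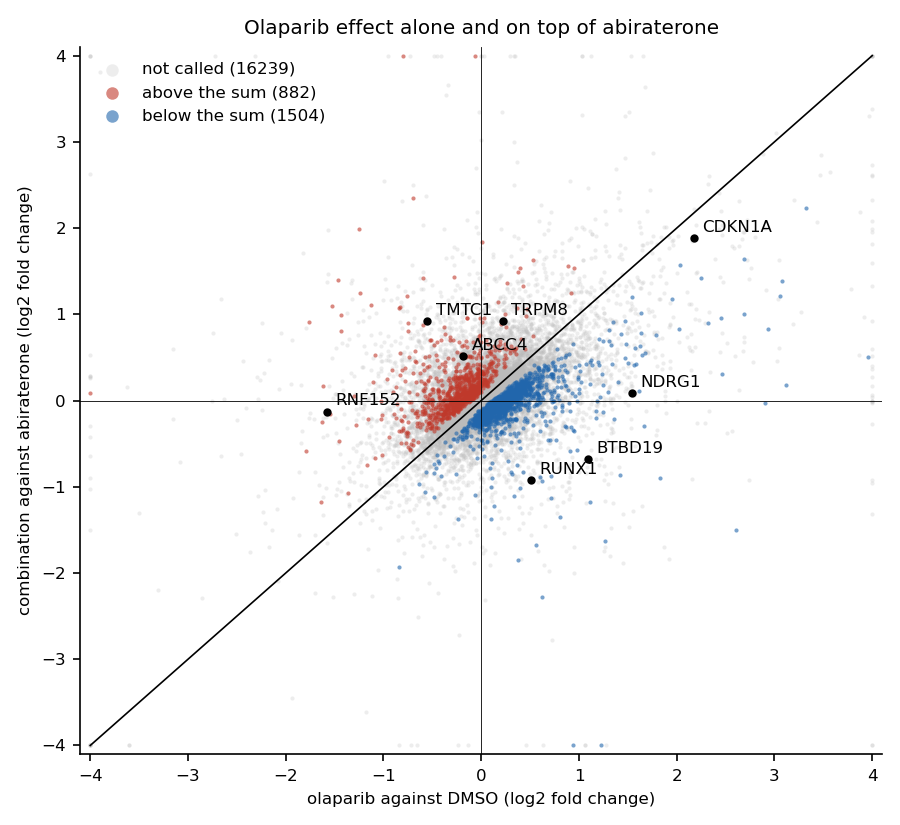
Each point is 1 of the 18625 genes tested, with the log2 fold change of olaparib against DMSO on the horizontal axis and that of the combination against abiraterone on the vertical axis, and the diagonal marks the log2 sum. Genes called below the sum (blue, 1504) lie mostly to the right of 0 and those above it (red, 882) mostly to the left, while 91 genes beyond 4 in either arm are drawn at the edge.

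The time course gave olaparib's own effect, without abiraterone, in libraries that the departure did not use. There olaparib at 1 µM changed 8566 of 18502 genes after 5 days (46.3%). Of the 940 attenuated rises measured there, 905 had the same sign and 779 were called in that direction, with a median of 0.27 against 0.32 in the panel and 0.033 on top of abiraterone. Of 474 attenuated falls, 459 had the same sign and 0 were called in the opposite direction, with medians of -0.28, -0.32 and -0.02. Many gained genes were called there with olaparib alone. Among the 313 whose uncalled change with olaparib alone in the panel was upward, 67 were called up and 82 down in the time course. Among the 276 with a downward change, 85 were called down and 34 up. The selection can also be made the other way, on the time course only. Counting only genes also tested for the departure, of the 4275 that rose there, 864 lay below the sum (20.2%) and 2.88% above it, and their median olaparib effect in the panel was 0.26, against 0.16 on top of abiraterone. The 4228 genes that fell there had 460 above (10.9%) and 203 below (4.8%), with medians of -0.17 and -0.14. The 9457 of these genes that did not pass the threshold in the time course had 294 above (3.11%) and 433 below (4.58%). For the 565 genes that rose by at least 1 log2 unit in the time course, 73 lay below the sum and 4 above it, and the median effect was 1.03 without and 0.69 with abiraterone. The direction was the same under upper-quartile scaling, with 716 risers below the sum and 159 above it, and 585 fallers above and 159 below.

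Where the mean count reached 100 in the highest group and 20 in the lowest, the largest departures above the sum were led by that of TMTC1, which encodes an O-mannosyltransferase of the endoplasmic reticulum (chr12:29500840-29784759, GRCh38). Its level was 2.75, 3.06 and 4.66 CPM in the DMSO libraries, 8.43, 7.78 and 8.04 with abiraterone, 2.08, 2.94 and 2.23 with olaparib, and 16.1, 14.2 and 15.7 with both. The combination lay above every other library and above the 5.599 CPM that the sum gives, and the departure was 1.47 ± 0.19 (SE; adjusted p = 1.783e-06). PCDH9, a protocadherin of cell adhesion (chr13:66302834-67230445), had the same shape, at 4.11, 5.33 and 5.45 CPM in DMSO, 22.5, 24.9 and 24.8 with abiraterone, 3.29, 3.78 and 3.49 with olaparib and 39.7, 39.6 and 38.0 with both. Olaparib lowered PCDH9 by itself (log2 change -0.51) and raised it on top of abiraterone (0.70), and the departure was 1.21 ± 0.12. PLD1, a phospholipase D, and BLNK, an adaptor protein of B cell receptor signaling, lay 1.13 ± 0.22 and 1.14 ± 0.23 above the sum. With olaparib alone their log2 changes of -0.48 and 0.40 did not pass the threshold, and both rose on top of abiraterone, by 0.65 and 1.54. In the time course olaparib alone raised BLNK by 0.85 (adjusted p = 1.856e-05), while PLD1, at 0.16, did not pass.

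RNF152, a lysosomal ubiquitin ligase gene (chr18:61808067-61894247), reached its departure in another way. It measured 4.79, 5.70 and 4.33 CPM in DMSO and fell to 2.01, 2.61 and 1.91 with abiraterone, 1.47, 1.89 and 1.60 with olaparib and 2.08, 2.24 and 1.60 with both. The combination overlapped each drug alone, neither drug changed the gene past the threshold on top of the other, and the departure was 1.45 ± 0.25. LINC01133, a long noncoding RNA gene (chr1:159958035-159984750), fell with olaparib to 1.58 to 1.82 CPM from 4.31 to 6.05 in DMSO, but stood at 5.60 to 6.20 with both drugs and 5.99 to 7.27 with abiraterone (departure 1.39 ± 0.18). The remaining 4 of the 10 largest were KIAA0408 at 1.25, FYB2 at 1.09, LINC00342 at 1.08 and PTPRB, a receptor tyrosine phosphatase of endothelium, at 1.06, with at most 7.575 CPM in any library of the 4 groups.

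Below the sum and with the same minimum, the largest departure was that of BTBD19 (chr1:44808523-44815585), at -1.77 ± 0.30. Its level was 0.781, 0.902 and 0.507 CPM in DMSO, 3.109, 4.225 and 3.141 with abiraterone, 1.501, 1.412 and 1.718 with olaparib, and 2.31, 2.04 and 2.21 with both, where the sum gives 7.39. Both drugs raised this gene, and the combination lay between them. CAMK2N1, an inhibitor of CaM kinase II (chr1:20482391-20486210), was at 6.83, 6.75 and 5.37 CPM in DMSO, 15.1, 13.5 and 14.1 with olaparib, 130, 133 and 133 with abiraterone and 129, 130 and 135 with both. Olaparib raised it by 1.19 log2 units on its own and changed it by -0.01 on top of abiraterone, a departure of -1.19 ± 0.09 (adjusted p = 1e-09). PLK3, a stress-responsive polo-like kinase, SERPINE2, a serine protease inhibitor, and IL32, a cytokine, also rose with each drug and had departures of -1.15 ± 0.15, -1.18 ± 0.22 and -1.15 ± 0.23.

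RUNX1, a transcription factor (chr21:34787801-36004667), showed opposite responses to olaparib. It was at 9.24, 10.8 and 12.5 CPM in DMSO and 16.6, 15.4 and 14.4 with olaparib, but fell from 2.96, 2.57 and 2.77 with abiraterone to 1.43, 1.34 and 1.63 with both drugs. All 3 olaparib libraries were above DMSO and all 3 combination libraries below abiraterone, and the departure was -1.44 ± 0.20. CYP2U1, a cytochrome P450 that hydroxylates fatty acids, did the same with little spread, at 42.99, 39.47 and 43.99 CPM in DMSO, 25.3, 24.7 and 24.0 with abiraterone, 74.7, 79.7 and 77.0 with olaparib and 19.3, 20.1 and 20.3 with both (departure -1.18 ± 0.06, adjusted p = 2.779e-15). PPFIA4, a liprin family gene, lay at -1.27 ± 0.27. MAGEA2B also entered the largest 10, at -1.35 ± 0.38. It has a near-identical copy, MAGEA2, so its count rests on how shared reads were split, and it lost its call when any 1 of 7 of the 12 libraries was left out.

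**Figure D2:**
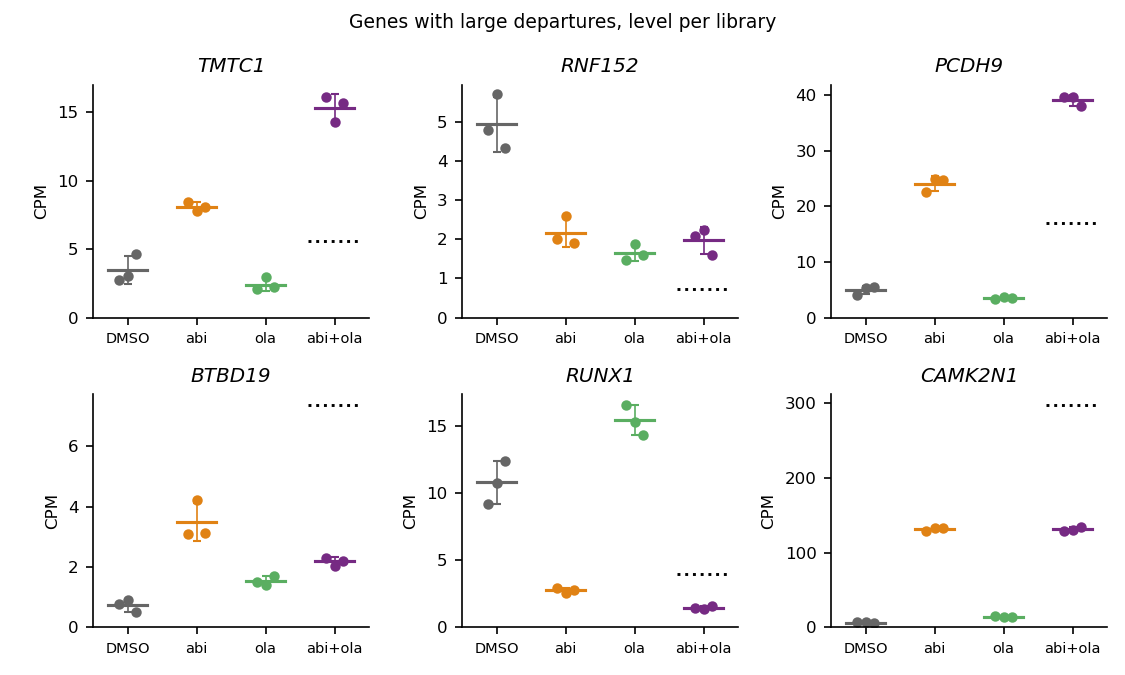
CPM of 6 genes in each library of DMSO, abiraterone (abi), olaparib (ola) and the combination (abi+ola). Points are the 3 libraries, bars the mean ± SD, and the dotted line at abi+ola is the level that the sum of both log2 effects gives, from which TMTC1 lies above (15.33 against 5.599 CPM) and CAMK2N1 below (131.2 against 296.9 CPM).

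The genes with the lowest adjusted p in each olaparib class show how those classes look in single libraries. Among attenuated falls, DDC, the aromatic amino acid decarboxylase, went from 53.1, 51.2 and 48.5 CPM to 25.4, 24.2 and 25.4 with olaparib, and stood at 177, 176 and 167 with both against 179, 170 and 175 with abiraterone (departure 1.016 ± 0.060). ADGRG6, an adhesion receptor, and GRB10, an adaptor of insulin signaling, followed at 0.59 ± 0.04 and 0.48 ± 0.04. Among attenuated rises, SMS, the spermine synthase, rose with olaparib from 266 to 278 CPM in DMSO to 444 to 456, but was at 128 to 132 with both and 129 to 133 with abiraterone (departure -0.74 ± 0.04). RHOB, a small GTPase, and BICD2, a dynein adaptor, lay at -0.53 ± 0.04 and -0.70 ± 0.06. In these 6 genes the effect of olaparib on top of abiraterone was between -0.07 and 0.06 log2 units and did not pass the threshold.

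Genes that turned from a fall to a rise included ABCC4, a cyclic nucleotide and drug exporter, at 886, 890 and 860 CPM in DMSO, 783, 781 and 754 with olaparib, 342, 360 and 354 with abiraterone and 516, 499 and 497 with both. Olaparib changed it by -0.19 alone and 0.52 on top of abiraterone (departure 0.70 ± 0.04). ACADL, an acyl-CoA dehydrogenase, and LUZP2 turned likewise, with departures of 0.54 ± 0.05 and 0.72 ± 0.07. FADS2, a fatty acid desaturase, and PLPP1, a lipid phosphatase, turned from a rise to a fall, with departures of -0.49 ± 0.03 and -0.58 ± 0.04. The FADS2 rise alone was only 0.09 in the panel, and its change of 0.01 in the time course did not pass the threshold. PLPP1 rose by 0.36 in the panel and by 0.37 in the time course. In the time course, 35 of the 70 genes that turned from a fall to a rise were called in the direction olaparib had alone. So were 50 of the 132 that turned from a rise to a fall. The same sign was found for 59 and 92 of these genes, and 2 and 6 were called in the opposite direction.

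Strengthened rises included TRPM8, the androgen-regulated cold-sensing channel, which rose with olaparib from 23.3 to 25.4 CPM in DMSO to 28.1 to 28.9, and from 10.4 to 11.1 with abiraterone to 20.0 to 20.5 with both (departure 0.70 ± 0.09). ELOVL7, a fatty acid elongase, rose by 0.10 alone and 0.54 on top of abiraterone, and FAM111A, a protease at replication forks, by 0.24 and 0.65. Strengthened falls were led by PAPSS1, a sulfate donor synthase (-0.26 alone and -0.85 on top of abiraterone), KMT5A, the histone H4 lysine methyltransferase (-0.47 and -0.79), and KIF20A, a mitotic kinesin (-0.48 and -0.84). All 57 strengthened falls had the same sign in the time course, and 55 of them were called there.

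Gained responses were led, above the sum, by ALCAM, an adhesion molecule, at 168, 167 and 170 CPM in DMSO, 172, 176 and 174 with olaparib, 413, 403 and 403 with abiraterone and 695, 655 and 630 with both (departure 0.65 ± 0.04). CDC14A, a phosphatase of the cell cycle, was at 25.4 to 29.6 CPM in DMSO, 14.7 to 16.2 with abiraterone and 28.1 to 32.4 with both, so that the combination overlapped DMSO (departure 0.96 ± 0.10). Below the sum were SCD, the stearoyl-CoA desaturase, DEGS1, a ceramide desaturase, and POLD2, a subunit of DNA polymerase delta, at -0.39 ± 0.04, -0.39 ± 0.04 and -0.28 ± 0.03, where olaparib lowered the gene on top of abiraterone. Without abiraterone the olaparib changes of these 3 genes were 0.03, 0.05 and 0.05 and did not pass the threshold. In the time course olaparib alone lowered them, with log2 changes of -0.08, -0.06 and -0.10, and it raised ALCAM by 0.27 and CDC14A by 0.17, all past the threshold there. Read from the abiraterone side, CDC14A and ZNF385B were attenuated falls. ZNF385B, a zinc finger gene, was at 64.2 to 66.6 CPM in DMSO, 8.01 to 8.39 with abiraterone and 12.1 to 14.0 with both (departure 0.76 ± 0.08). It was also gained above the sum and rose by 0.68 on top of abiraterone. In the time course olaparib alone changed it the other way, by -0.18, past the threshold.

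Gene lists written from general knowledge were described by their counts beside the 12.8% of all genes called and the median departure of all genes, which was -0.01. The share called was 16.2% among protein-coding genes and 2.75% among long noncoding RNA genes. With the filter of 100 counts in the highest group, 2594 of 12706 genes were called. How far a list's share follows the kind and level of its genes was not tested. The list that departed most often held hypoxia and glycolysis genes, which HIF-1 is known to induce and which code for sugar uptake, glycolysis and lactate output. Of its 42 tested members, 25 lay below the sum and none above it, with a median departure of -0.33. The count of members below ran from 19 to 28 over 21 alternatives, with none above it in any. Olaparib raised 22 members on its own and lowered none, and the median effect went from 0.21 to -0.14 on top of abiraterone. The list's median relative to DMSO was 0.30, 0.18 and 0.12 in the olaparib libraries and -0.36, -0.42 and -0.39 in the combination, against -0.28, -0.24 and -0.23 with abiraterone and 0.07, -0.005 and -0.05 in DMSO itself.

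NDRG1, a stress-response gene induced by hypoxia and by androgen and so a member of that list and of the androgen list (chr8:133237175-133302022), had the largest departure among them. It was at 178, 152 and 138 CPM in DMSO, 494, 447 and 419 with olaparib, 81.7, 88.1 and 91.1 with abiraterone and 94.2, 97.5 and 84.8 with both. The olaparib rise of 1.54 was 0.09 on top of abiraterone, and the departure was -1.45 ± 0.13 (adjusted p = 2.844e-06). ALDOC, a brain-type aldolase of glycolysis, measured 59.6, 49.3 and 41.1 CPM in DMSO, 97.5, 86.6 and 74.2 with olaparib, 49.3, 56.6 and 59.0 with abiraterone and 55.0, 56.1 and 54.3 with both, so that only the olaparib libraries stood apart (departure -0.79 ± 0.18). PFKP, the platelet phosphofructokinase, measured 72.4, 64.0 and 61.5 CPM in DMSO, 94.7, 89.9 and 80.6 with olaparib, 54.5, 60.4 and 64.0 with abiraterone and 44.2, 48.9 and 49.7 with both (departure -0.75 ± 0.13). Its effect turned, from a rise alone to a fall on top of abiraterone.

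Further members of the list are given after their values were seen. LDHA, lactate dehydrogenase A, was at 998 to 1168 CPM in DMSO, 1118 to 1311 with olaparib, 691 to 794 with abiraterone and 502 to 536 with both, a departure of -0.66. BNIP3, a mitophagy receptor, lay at -0.56, SLC16A3, the lactate exporter, at -0.56, VEGFA, the angiogenic growth factor, at -0.49, PDK1, the pyruvate dehydrogenase kinase, at -0.48 and SLC2A1, the glucose carrier, at -0.42. HIF1A itself had a departure of 0.02 and LDHB of -0.003, and neither passed the threshold.

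The promoters of the 3 called members with the largest departures, leaving out that of NDRG1, are shown, since their family is known for the hypoxia response core, ACGTG or GCGTG. They share a departure below the sum, by which they were picked. Sequences are RefSeq's, GRCh38.p14, from 250 bases before to 50 after the start, in the gene's direction, and capitals mark the core on either strand (CACGT and CACGC are the core read on the other strand). ALDOC is on the minus strand at chr17:28576846-28577145, PFKP on the plus strand at chr10:3067720-3068019, and LDHA on the plus strand at chr11:18394313-18394612.
ALDOC: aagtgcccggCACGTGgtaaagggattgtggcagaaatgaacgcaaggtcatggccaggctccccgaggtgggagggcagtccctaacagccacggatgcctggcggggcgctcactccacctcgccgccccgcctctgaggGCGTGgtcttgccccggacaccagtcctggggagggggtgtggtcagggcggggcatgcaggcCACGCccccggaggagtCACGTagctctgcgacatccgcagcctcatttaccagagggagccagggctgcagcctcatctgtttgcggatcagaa
PFKP: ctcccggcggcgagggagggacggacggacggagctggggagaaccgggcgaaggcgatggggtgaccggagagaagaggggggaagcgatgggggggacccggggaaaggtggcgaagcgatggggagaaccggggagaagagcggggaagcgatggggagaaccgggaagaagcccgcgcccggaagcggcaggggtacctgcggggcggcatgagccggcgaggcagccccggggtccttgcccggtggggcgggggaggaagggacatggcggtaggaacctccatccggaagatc
LDHA: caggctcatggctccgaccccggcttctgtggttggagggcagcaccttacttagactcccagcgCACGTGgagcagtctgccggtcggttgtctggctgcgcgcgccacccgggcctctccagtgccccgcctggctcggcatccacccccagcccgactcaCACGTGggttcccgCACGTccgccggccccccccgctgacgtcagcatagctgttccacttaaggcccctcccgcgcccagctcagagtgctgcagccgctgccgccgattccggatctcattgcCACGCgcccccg
ALDOC held 5 matches, LDHA 6 and PFKP none in this window. The core is short and lies inside the E-box CACGTG, and of the called members with a promoter in the table, 69.6% held it (16 of 23), against 62.1% of all tested genes with one and 48.4% of all 27305 promoters, so the share in the list was near that of the tested genes. The motif was added after the departures were seen.

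Androgen response genes had a median change of -1.05 with abiraterone, but not all of them fell, and UGT2B17 rose by 3.21. Of 106 members, 32 lay below the sum and 8 above it, with a median departure of -0.09. Olaparib raised 56 of them on its own and lowered 17. FKBP5, a cochaperone of steroid receptors, was at 826, 838 and 857 CPM in DMSO, 1112, 1127 and 1095 with olaparib, 126, 132 and 132 with abiraterone and 124, 122 and 130 with both. The olaparib rise of 0.40 was -0.05 on top of abiraterone, a departure of -0.46 ± 0.04. TMPRSS2, a serine protease, fell from 219 to 283 CPM in DMSO to 43.1 to 47.4 with abiraterone, and rose to 391 to 433 with olaparib and 54.1 to 56.4 with both (departure -0.45 ± 0.11). Its call was lost with only the 12 libraries in the fit and without combination replicate A. KLK2, a kallikrein, rose by 0.39 alone and changed by 0.04 on top of abiraterone (departure -0.35 ± 0.06). The departure of KLK3, the gene of PSA, at -0.13 ± 0.06 (adjusted p = 0.193) did not pass the threshold, but passed it without a filter on low counts and with only the 12 libraries in the fit.

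Above the sum in that list stood ABCC4 and TRPM8, given above, and the glucuronosyltransferases UGT2B17 and UGT2B15, which inactivate androgens. UGT2B17 was at 6.55, 6.29 and 6.21 CPM in DMSO, 5.40, 5.59 and 5.47 with olaparib, 63.5, 55.3 and 57.4 with abiraterone and 93.7, 83.6 and 79.0 with both (departure 0.75 ± 0.12). UGT2B15 lay at 0.54 ± 0.07 and UGT2B28, of the same family but lowered by abiraterone, at 0.59 ± 0.17. The call of UGT2B28 was lost without abiraterone replicate B or C or combination replicate A or B, and on the linear CPM scale its departure had the opposite sign, at -19.2 CPM. These enzymes have close paralogs, and their counts rest on how reads were assigned between copies.

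Homologous recombination genes, which repair double-strand breaks, had 7 of 38 members above the sum and none below, with a median of 0.11. Olaparib lowered 26 of them and raised none. BARD1, the partner of BRCA1 (chr2:214725646-214809683), was at 73.3, 82.5 and 83.3 CPM in DMSO, 56.9, 58.8 and 60.0 with olaparib, 184, 181 and 176 with abiraterone and 200, 190 and 185 with both (departure 0.53 ± 0.05). The fall with olaparib (-0.45) passed the threshold, while the change on top of abiraterone (0.09) did not. BLM, a helicase, was at 18.03, 18.36 and 19.73 CPM in DMSO, 12.08, 11.97 and 12.11 with olaparib, 15.6, 13.3 and 15.2 with abiraterone and 12.3, 11.3 and 13.6 with both (departure 0.38 ± 0.11), and FANCM, a Fanconi anemia translocase, lay at 0.37 ± 0.08. The others called were POLQ at 0.34, ATM at 0.30, FANCI at 0.26 and MRE11 at 0.20, named after their values were seen. BRCA1 at 0.12 ± 0.07 (adjusted p = 0.3341), BRCA2 at 0.38 ± 0.15 (0.1238) and PALB2 at -0.05 ± 0.07 (0.6862) did not pass, though BRCA2 did without DMSO replicate A (0.48). BLM was not called without DMSO replicate C, abiraterone replicate B or combination replicate C. The number of members above the sum was 12 with upper-quartile scaling, 11 without a filter on low counts and 13 without DMSO replicate A, and the list's median was -0.06 in that library against 0.0005 and 0.05 in the other DMSO libraries. Why the count was higher without that library was not tested.

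**Figure D3:**
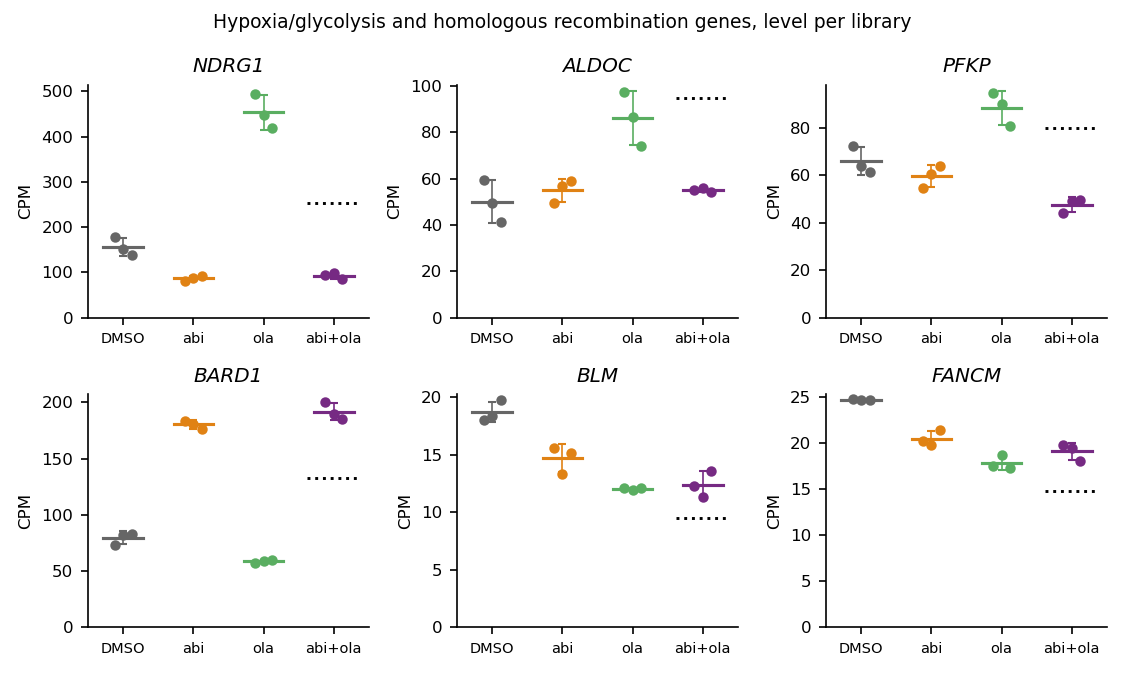
CPM of 3 hypoxia and glycolysis genes (top) and 3 homologous recombination genes (bottom) per library, with points for the 3 libraries, bars for the mean ± SD and a dotted line for the level that the sum gives in the combination. NDRG1, ALDOC and PFKP lie below that line and BARD1, BLM and FANCM above it.

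Cycling genes had shares of called members of 9.3% for S phase and 14.8% for G2/M. S phase genes had 4 of 43 members above the sum and none below, and olaparib lowered 37 of them alone. Their count above was 8 with upper-quartile scaling, 12 without DMSO replicate A and 2 without DMSO replicate C, and the list's median was -0.10 and 0.10 in those libraries against 0.003 in the other DMSO library. G2/M genes had 2 above and 6 below of 54, and olaparib lowered 50. Their split was 4 above and 5 below with upper-quartile scaling, 5 were above with the filter of 100 counts, and 2 were below without abiraterone replicate A. CDC20, an activator of the anaphase-promoting complex, was at 87.7 to 94.2 CPM in DMSO, 77.8 to 81.4 with abiraterone, 64.1 to 70.0 with olaparib and 47.51 to 50.01 with both (departure -0.29 ± 0.08). AURKA, a mitotic kinase, at -0.25 ± 0.07 and CDCA8, a subunit of the chromosomal passenger complex, at -0.21 ± 0.06 also fell more with olaparib on top of abiraterone than without it. The calls of CDC20, AURKA and CDCA8 were lost in 2, 3 and 6 of 21 alternatives, each time with 1 library left out. CENPU and USP1, in the S phase list, lay above the sum at 0.20 ± 0.06 and 0.19 ± 0.06, and the call of USP1 was lost in 4 alternatives, each with 1 library left out.

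The promoters of CDC20, CDCA8 and KIF20A, named above for mitosis, are shown because such genes are known for the cell cycle homology region (CHR, TTTGAA or TTCGAA) and the CCAAT box, which are in capitals here on either strand. All are on the plus strand, CDC20 at chr1:43358731-43359030, CDCA8 at chr1:37692266-37692565 and KIF20A at chr5:138178862-138179161, RefSeq, GRCh38.p14.
CDC20: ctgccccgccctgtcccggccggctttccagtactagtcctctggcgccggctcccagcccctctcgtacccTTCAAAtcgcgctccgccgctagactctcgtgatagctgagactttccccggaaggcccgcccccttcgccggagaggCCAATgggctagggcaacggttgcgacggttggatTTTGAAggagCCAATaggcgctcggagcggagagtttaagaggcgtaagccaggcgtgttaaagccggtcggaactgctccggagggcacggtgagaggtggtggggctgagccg
CDCA8: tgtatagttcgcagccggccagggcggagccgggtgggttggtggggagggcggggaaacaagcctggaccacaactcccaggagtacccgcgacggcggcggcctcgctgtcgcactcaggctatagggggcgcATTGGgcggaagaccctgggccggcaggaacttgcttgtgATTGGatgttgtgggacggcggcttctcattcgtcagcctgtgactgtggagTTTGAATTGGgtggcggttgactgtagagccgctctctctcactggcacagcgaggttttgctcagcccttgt
KIF20A: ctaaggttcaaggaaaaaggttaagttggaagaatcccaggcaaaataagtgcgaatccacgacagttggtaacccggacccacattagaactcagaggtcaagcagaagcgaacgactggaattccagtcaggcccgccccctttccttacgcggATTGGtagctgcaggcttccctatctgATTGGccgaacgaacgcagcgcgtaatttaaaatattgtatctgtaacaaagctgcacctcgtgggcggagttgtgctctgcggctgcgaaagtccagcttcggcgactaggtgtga
CDC20 held 2 CHR and 2 CCAAT matches, CDCA8 1 and 3, and KIF20A 0 and 2. KMT5A and PAPSS1, strengthened falls given above, held 1 of each and neither motif, in that order. Both motifs stood together in 60.0% of the G2/M promoters, in 15.2% of the promoters of strengthened falls (7 of 46), in 4.80% of the 12283 tested genes with a promoter in the table and in 6.58% of all promoters. An E2F motif (TTCCCGC or TTGGCGC) was in 19.6% of the promoters of attenuated falls, 10.5% of those of attenuated rises, 30.4% of those of strengthened falls and 14.2% of tested genes. The androgen half-site AGAACA was in 9.29% of promoters above the sum and 7.76% below it (9.37% of tested genes), and the p53 half-element in 7.29% and 4.79% (5.33%).

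In the p53 target list, 8 of 52 members lay above the sum and 8 below it, with a median departure of -0.002, while olaparib raised 40 of them. CDKN1A, the p21 cell cycle inhibitor (chr6:36676460-36687337), was at 58.2, 57.3 and 46.8 CPM in DMSO, 239, 238 and 256 with olaparib, 94.1, 97.5 and 93.2 with abiraterone and 346, 353 and 355 with both. It was highest in the combination and still below the 428.1 CPM the sum gives, with a departure of -0.29 ± 0.07 (adjusted p = 0.0111), which lost its call where only the 12 libraries were fitted (-0.19). On the linear CPM scale it turned, with the combination 66.2 CPM above the sum. MDM2, the p53 ubiquitin ligase, departed the other way, at 0.15 ± 0.04, with levels of 178 to 180 CPM in DMSO, 183 to 190 with abiraterone, 239 to 250 with olaparib and 281 to 283 with both. PLK3, given above, had the largest departure below the sum, and KITLG, the ligand of KIT, the largest above it (0.90 ± 0.21), at 1.69 to 2.08 CPM in DMSO and 6.41 to 7.58 with both. PMAIP1, the BH3-only protein NOXA, fell to 4.98 to 5.96 CPM with olaparib from 9.09 to 9.63 in DMSO, and was at 6.47 to 6.80 with abiraterone and 5.00 to 6.50 with both (departure 0.61 ± 0.15).

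Amino acid response genes, which ATF4 is known to induce when amino acids are short, were the list with the most members above the sum, 13 of 38, with 2 below and a median departure of 0.13. Olaparib lowered 31 of them and raised none, and the median change was -0.66 with olaparib, -0.62 with abiraterone and -0.47 with olaparib on top of abiraterone. SESN2, a stress sensor that restrains mTORC1 and also a p53 target (chr1:28259518-28282491), was at 22.9, 23.0 and 20.4 CPM in DMSO, 21.1, 22.6 and 22.5 with olaparib, 18.3, 18.1 and 19.3 with abiraterone and 31.0, 28.8 and 29.1 with both. The combination libraries stood above all others, while olaparib alone did not change the gene past the threshold (0.002) and abiraterone lowered it (-0.25), and the departure was 0.67 ± 0.08. In the time course olaparib alone raised SESN2 by 0.34 (adjusted p = 5.09e-07). SLC7A11, the cystine transporter, fell from 176 to 190 CPM in DMSO to 89.2 to 97.2 with abiraterone, 56.1 to 61.4 with olaparib and 39.1 to 44.6 with both (departure 0.46 ± 0.10), and JDP2, a repressor of the AP-1 family, lay at 0.46 ± 0.10. ATF4 itself departed by 0.22 and TRIB3, one of its targets, by 0.39, named after their values were seen. Over 21 alternatives 12 to 16 members lay above the sum and 1 or 2 below it. The amino acid response element TGATGNAA was in 20.0% of the 30 promoters of the list, 7.14% of the 14 of its called members and 1.69% of tested genes.

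Under enzalutamide plus talazoparib, whose departure shares the DMSO libraries, the same list had a median departure of -0.23. The difference between both departures, in which DMSO cancels, was called for 596 of 18625 genes (3.20%), 235 higher and 361 lower with abiraterone plus olaparib, and 3009 had an unadjusted p under 0.05. The 596 became 996 without talazoparib replicate A, and 342, 347, 374, 393 and 396 without enzalutamide replicate A, abiraterone plus olaparib replicate B, talazoparib replicate C, enzalutamide replicate C and abiraterone replicate B. In the amino acid response list 19 of 38 members had a higher departure with abiraterone plus olaparib and none a lower one, and over 25 alternatives 15 to 24 had a higher one. Of these, CTH, the cystathionine lyase of cysteine synthesis, lay at -0.06 here and at -0.85 under enzalutamide plus talazoparib, and ASNS, the asparagine synthetase, at 0.26 and -0.50, both named after their values were seen. The list's median relative to DMSO was -0.63 to -0.57 with abiraterone and -0.03 to 0.03 with enzalutamide, -0.64 to -0.57 with olaparib and -0.56 to -0.49 with talazoparib, -1.07 to -1.01 with abiraterone plus olaparib, and -0.80 to -0.77 under the other combination. The hypoxia and glycolysis list had a median departure of -0.36 under enzalutamide plus talazoparib, and the difference was called upward for 2 members and downward for 1. Among the genes described above, the departures under both combinations stood at 1.47 and 1.05 for TMTC1, -1.45 and -1.23 for NDRG1, -1.19 and -0.94 for CAMK2N1, -1.18 and -1.12 for CYP2U1, -0.74 and -0.68 for SMS and 0.70 and 0.80 for ABCC4, and the difference was called for none of these 6.

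**Figure D4:**
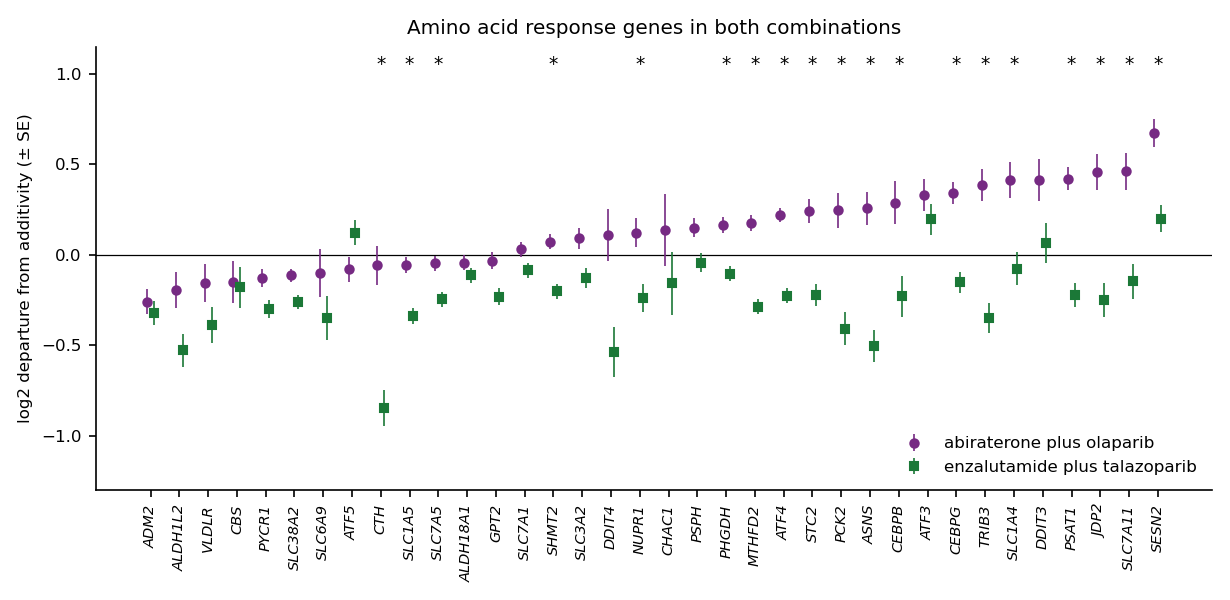
Log2 departure ± SE of 36 amino acid response genes under abiraterone plus olaparib (circles) and enzalutamide plus talazoparib (squares), which share the DMSO libraries, with an asterisk where the difference was called (19 genes). The circles reach from -0.26 to 0.67 and the squares from -0.85 to 0.20, and 2 genes with a standard error of 0.5 or more are not drawn.

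Cholesterol and fatty acid synthesis genes had 13 of 34 members below and 1 above, with a median of -0.14. SCD, at 1563 to 1701 CPM in DMSO and 1659 to 1676 with olaparib, went from 1085 to 1167 with abiraterone to 856 to 895 with both, a departure of -0.39 ± 0.04. HSD17B7, which acts in cholesterol synthesis, was the exception above the sum, at 0.41 ± 0.10. Genes of MYC and ribosome biogenesis had 14 of 36 below and none above, with a median of -0.13, and the count below was 9 without olaparib replicate B. PPAN, a ribosome assembly factor, POLR1C, a subunit of RNA polymerases I and III, and MYBBP1A, a nucleolar protein, lay at -0.31 ± 0.06, -0.30 ± 0.07 and -0.26 ± 0.05. Endoplasmic reticulum chaperones had 9 of 31 below and 1 above, with HSPA5, the main chaperone BiP, at 922 to 979 CPM in DMSO, 1086 to 1093 with olaparib, 773 to 807 with abiraterone and 720 to 733 with both (departure -0.30 ± 0.04).

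**Figure D5:**
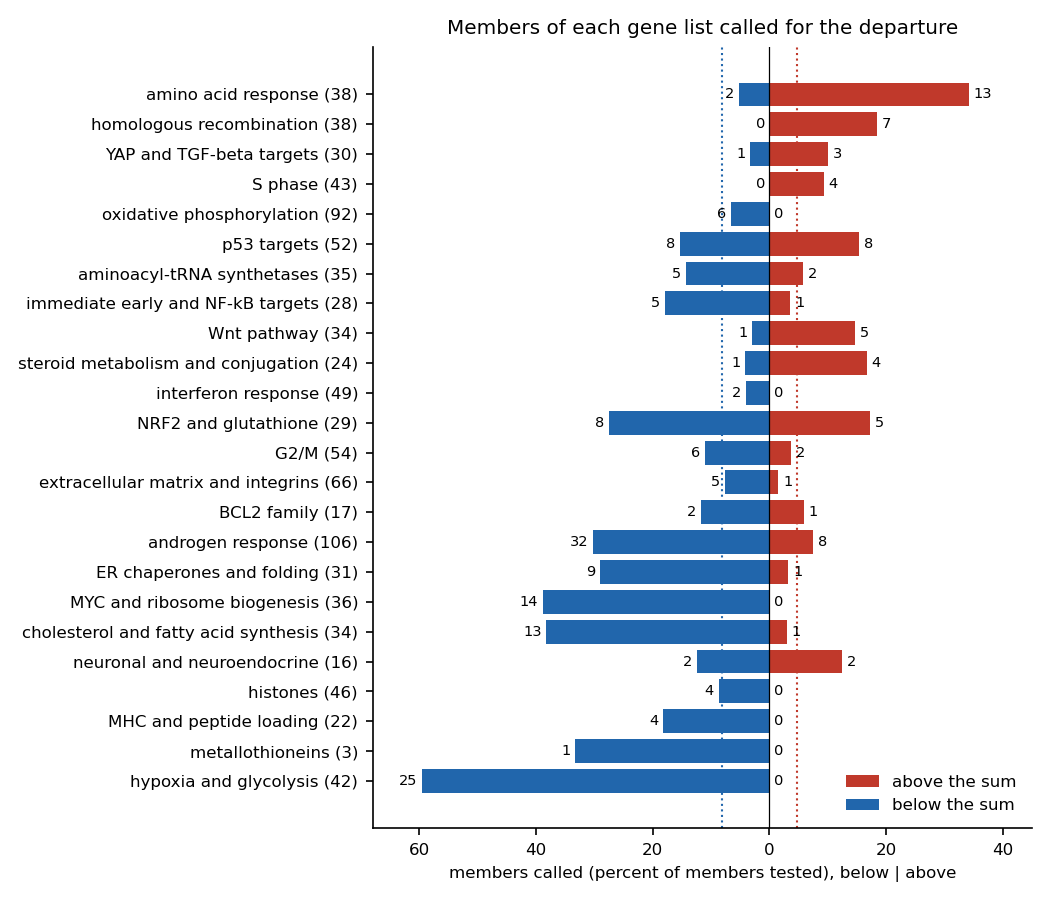
Share of each list's tested members (number in parentheses) called above the sum (red, right) and below it (blue, left), with the member count at each bar and dotted lines at the share of all genes, 4.74% above and 8.08% below. Hypoxia and glycolysis reaches furthest left (25 of 42) and the amino acid response furthest right (13 of 38).

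Smaller lists are given by their counts. The share called was 4.08% for interferon response, 8.7% for histones and 9.09% for extracellular matrix and integrins, under the 12.8% of all genes. It was 18.2% for antigen presentation, 21.4% for immediate early and NF-kB genes and 44.8% for glutathione and NRF2 genes. Interferon response genes had 2 of 49 below the sum, IFITM3 at -0.48 ± 0.08 and PARP12 at -0.28 ± 0.07, and antigen presentation genes 4 of 22, among them HLA-DMA at -0.55 ± 0.155, not called without DMSO replicate B or abiraterone replicate A, and B2M, the light chain of MHC class I, at -0.32 ± 0.05. Extracellular matrix and integrin genes had 5 below and 1 above of 66, and its largest, ITGA11, LAMB3 and ITGB2, were at most 3.191 CPM in any library and under the count minimum above. Histone genes had 4 of 46 below, of which H2BC21, at 160 to 176 CPM in DMSO, 284 to 297 with olaparib, 154 to 158 with abiraterone and 214 to 226 with both, departed by -0.32 ± 0.04. Immediate early and NF-kB genes had 5 of 28 below and 1 above, with NFKB2 at -0.67 ± 0.07, FOSL2 at -0.66 ± 0.08 and RELB, at most 1.779 CPM and under that minimum, at -1.38 ± 0.32. Glutathione and NRF2 genes had 8 below and 5 above of 29 (6 and 6 with total-count scaling), with GSTA1, a glutathione transferase, at -0.61 ± 0.14.

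Wnt pathway genes had 5 above and 1 below of 34, FZD4, a receptor, at 0.33 ± 0.05 and LRP5, a coreceptor, at -0.34 ± 0.06. Steroid metabolism genes had 4 above and 1 below of 24, YAP and TGF-beta targets 3 and 1 of 30 and the neuronal list 2 and 2 of 16, with TUBB3, a neuronal tubulin, at -0.59 ± 0.09 and MAP2 at 0.46 ± 0.09. The departure of TUBB3 turned to 1.05 CPM above the sum on the linear scale. AURKA, given above under G2/M, is also in the neuronal list and was its other member below the sum. BCL2 family genes had 1 above and 2 below of 17. Aminoacyl-tRNA synthetases had 2 above and 5 below of 35, with SARS1 at 0.27 ± 0.05 and TARS2 at -0.32 ± 0.07. Their counts became 4 and 4 with total-count scaling. The shares called were 17.6% for Wnt, 20.8% for steroid metabolism and 13.3% for YAP and TGF-beta targets. They were 25% for the neuronal list, 17.6% for the BCL2 family and 20% for the synthetases, beside 12.8% of all genes. Oxidative phosphorylation genes had 6 of 92 below and none above (6.52%), which became 1 below and 2 above with upper-quartile scaling. Of 3 tested metallothioneins, MT1X lay below the sum (-0.26 ± 0.06). Luminal markers had 4 of 12 below and 1 above, which became 1 below and 2 above with total-count scaling, with KRT8, a keratin, at -0.20 ± 0.04 and FOLH1, the gene of PSMA, at 0.20 ± 0.03. Leaving out 1 library moved some of these small counts by more than 1.5 times. Antigen presentation went from 4 below to 1 without abiraterone replicate A and 7 without DMSO replicate A, histones from 4 to 2 without DMSO replicate B, immediate early genes from 5 to 3 without combination replicate A and aminoacyl-tRNA synthetases from 5 to 3 without DMSO replicate B. Counts below also went from 2 to 1 for the neuronal list without abiraterone replicate A, from 2 to 1 for the BCL2 family without DMSO replicate A and from 1 to 2 for metallothioneins without DMSO replicate C. Counts above the sum went from 5 to 3 for the Wnt pathway without combination replicate B, from 4 to 2 for steroid metabolism without combination replicate A from 3 to 5 for YAP and TGF-beta targets without DMSO replicate A and from 2 to 1 for the neuronal list without DMSO replicate C. The targets of olaparib did not pass the threshold, with PARP1 at -0.07 ± 0.03 (adjusted p = 0.15) and PARP2 at 0.05 ± 0.07 (adjusted p = 0.6965).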

How the data were processed

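RNA-seq libraries of C4-2B cells, made with a stranded mRNA kit, were trimmed with Trim Galore, aligned to GRCh38 with STAR and quantified per gene with Salmon by the authors, who deposited estimated counts as whole numbers. How these were rounded is not given in the sources used here. Gene names and coordinates came from GENCODE release 44, one release before the one the study names, and matched 62666 of 63187 genes. Genes without a symbol held 0.12% of the counts and stayed in the tests.

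In R 4.3.3, edgeR 4.0.16 (robust quasi-likelihood fit, scaling by TMM, low-count filter by group) was run over the 21 libraries of the 5-day panel, which share 1 estimate of the spread. The departure was the contrast of abiraterone plus olaparib minus abiraterone minus olaparib plus DMSO, two-sided, with Benjamini-Hochberg adjustment over all genes tested. The time course was fitted on its own. The replicate letters did not pair the libraries (18 same-letter pairs, r from -0.066 to 0.064). On simulated data, 167 of 200 genes given a departure of 1 or -1 among 18202 were recovered (83.5%), with 6 unchanged genes called. Those departures were larger than the median size of 0.27 among called genes and left out the genes with the lowest levels. Single-drug effects were given to fewer genes than either drug changed here. The simulation therefore does not give the recovery of smaller departures.

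CPM values use TMM-scaled totals, apart from the cell type marker sums, which use library totals, and errors are standard errors unless named SD. Named genes had a symbol, passed the threshold and had means of at least 100 counts in the highest and 20 in the lowest group. They were the 10 largest in each direction, the 3 with the lowest adjusted p per class and direction, the 3 largest called members per list, taken without the count minimum, and 14 genes whatever their values. Genes named outside this rule are said to be, and some genes that the rule names are not reported here. The members and gene lists were chosen with earlier results of these data known, and Seurat 5.3.0 supplied the cell cycle lists. DESeq2 1.42.0 was an alternative. Replicate differences exceeded counting noise in every group (chi-square per degree of freedom 2.81 to 6.03).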

Additional observations from a re-analysis of the deposited data

Results flagged for a closer look

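The departure under abiraterone plus olaparib was set against that under enzalutamide plus talazoparib in the same panel. DMSO cancels in the difference of both, and each difference below is positive where the departure was higher with abiraterone plus olaparib. The test was edgeR's quasi-likelihood test, and 596 genes passed at an adjusted p under 0.05, with 18 of them at an absolute difference of at least 1. Drugs and doses differ together between the combinations, so they cannot be told apart. In the amino acid response list 19 of 38 members differed and in the list of aminoacyl-tRNA synthetases 12 of 35, against 3.20% of all 18625 genes. All of these members were higher with abiraterone plus olaparib.

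Among the genes that the naming rule gave and whose departure was called, the difference passed the threshold and was 1.13 for LINC01133, 0.71 for JDP2, 0.61 for PCDH9, 0.61 for SLC7A11, 0.48 for SARS1, 0.47 for SESN2 and 0.17 for FOLH1. It also passed, at 0.79, 0.76, 0.74 and 0.44, for CTH, ASNS, TRIB3 and ATF4, named in the report after their values were seen. Of the negative differences that passed, the one of TRPM8 was -0.59, with departures of 0.70 and 1.29 in the 2 combinations, in that order. H2BC21 followed at -0.47, CDKN1A at -0.43, KLK2 at -0.34, AURKA at -0.33 and CDCA8 at -0.30. Smaller ones were MYBBP1A at -0.23, RHOB at -0.23, ELOVL7 at -0.22, FADS2 at -0.19, DEGS1 at -0.19 and POLD2 at -0.18.

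CDKN1A and H2BC21 lay below the sum with abiraterone plus olaparib (-0.29 and -0.32) and had departures of 0.14 and 0.15 with the other combination. JDP2 and SLC7A11 lay above the sum with abiraterone plus olaparib and had departures of -0.25 and -0.15 with the other.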

How the results depend on the processing

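The 2386 called genes became 2306 with a replicate block on the letters, 2264 of them shared, and no gene was called in the opposite direction under any scaling, filter, tool or block. Leaving out 1 library gave 1801 (without DMSO replicate B) to 2494 genes (without DMSO replicate A), with 647 to 957 above the sum and 1100 to 1537 below it. The olaparib effect was then attenuated or reversed in 1183 to 1721 genes and strengthened or gained in 515 to 711, and the abiraterone effect in 653 to 1002 and 1112 to 1479. The difference of both departures ranged from 342 to 996 genes and the time course from 7737 to 7929. With at least 100 counts in the highest group, 1351 genes lay above the sum, and DESeq2 called 1123 differences, for which the cause was not tested. By construction, stricter thresholds called fewer genes. An adjusted p under 0.01 left 1250 genes, 410 above and 840 below, with 942 and 308 in the olaparib classes and 475 and 775 in the abiraterone classes. A departure of at least 0.5 left 417 genes (200 and 217), with 281, 117, 172 and 242 in the same classes, and at least 1 left 136 (64 and 72), with 83, 43, 57 and 78. The share above the sum was 37.6% with RLE scaling, 48.8% with a filter of 1 CPM, 36.2% with no filter, 38% with DESeq2 and 41.3% in the 12 libraries alone. Over 119 named genes and 21 alternatives, 2353 values kept direction and side of the threshold, 131 lost the call, 10 gained it and 0 reversed. ATP5MF-PTCD1 lost it in 17, NDUFB10 in 14, and CD68 and H2BC18 in 10 each. List counts under the alternatives, the time-course sets under other scalings and the hypoxia motif were chosen after seeing the data. The median SE of the departure was 0.119 over all genes and 0.062 over called genes, and how it moves with depth was not tested.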
